A study of Mus musculus with 4 samples.

Results

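AP-1 is a transcription factor built as a pair of proteins of the Fos, Jun and ATF families. The 10 genes described here are the Fos family (Fos, Fosb, Fosl1, Fosl2), the Jun family (Jun, Junb, Jund), Atf3, and the immediate early genes Egr1 and Ier2. They were taken by symbol from the expression tables, where 10 of 10 were found among 32285 genes. CT26, a mouse colon carcinoma cell line of BALB/c origin, was grown under the skin of BALB/c mice, and tumours were taken on day 14 after injection of 1000000 cells. The CT26 cells carried Sun1 intact (Sun1_WT) or knocked out (Sun1_KO). For myeloid, NK and T nuclei these names give the tumour they came from. Sun1 encodes an inner nuclear membrane protein that helps couple the nucleus to the cytoskeleton. Tumours were dissociated with collagenase IV and DNase I before nuclei were prepared, and RNA and open chromatin were read from the same nuclei with the 10x Multiome kit. The labels do not say how many mice or what age stand behind a library, which part of Sun1 was deleted, or whether the knockout line was 1 clone.

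Immediate early genes are transcribed within minutes of a growth factor, stress or mechanical stimulus, without new protein synthesis. Their induction runs through MAP kinases, which act on the serum response factor and on CREB-type factors already present on the promoters, and their RNAs are short-lived. Fos proteins must pair with a Jun protein to bind DNA, whereas Jun proteins can also pair among themselves or with ATF proteins, and Fosl1 is the Fos protein often found at a lasting level in carcinoma cells.

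The sequences upstream of 3 members are shown because these genes recur in the results, and no result was tied to the sequences themselves. In tumour nuclei Fos RNA differed most between the libraries and Jun RNA went the other way. The promoter region of Atf3 differed in accessibility there, at a low level. The bases before the annotated start come from RefSeq (GRCm38.p6), in which 7 of the 10 members had an entry, and are written 5′ to 3′ in the direction of the gene. The Fos stretch is chr12:85473640-85473889 on the plus strand, the Jun stretch chr4:95052223-95052472 on the minus strand, and the Atf3 stretch chr1:191183334-191183583 on the minus strand. Capitals mark a CREB-type half-site and a TATA box in Fos, a Jun-type variant of the AP-1 site in Jun, and a CREB-type half-site in Atf3, with the letters searched given after the sequences.
Fos: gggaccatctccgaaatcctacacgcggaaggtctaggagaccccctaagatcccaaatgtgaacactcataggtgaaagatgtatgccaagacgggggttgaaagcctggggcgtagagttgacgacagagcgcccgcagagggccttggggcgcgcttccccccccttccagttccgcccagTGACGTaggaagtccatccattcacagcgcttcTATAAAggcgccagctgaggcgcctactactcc
Jun: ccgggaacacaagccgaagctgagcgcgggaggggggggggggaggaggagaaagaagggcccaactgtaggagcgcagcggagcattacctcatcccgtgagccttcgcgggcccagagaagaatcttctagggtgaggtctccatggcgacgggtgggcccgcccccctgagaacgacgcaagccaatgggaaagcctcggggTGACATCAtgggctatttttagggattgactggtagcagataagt
Atf3: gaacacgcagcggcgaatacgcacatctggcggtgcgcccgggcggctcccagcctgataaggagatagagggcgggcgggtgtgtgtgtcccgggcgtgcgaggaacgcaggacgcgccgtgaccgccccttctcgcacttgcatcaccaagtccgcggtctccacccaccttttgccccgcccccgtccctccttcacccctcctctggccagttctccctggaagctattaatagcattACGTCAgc

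Motifs were searched on both strands from 250 bases before to 50 bases after the start of 32851 promoters. The CREB-type half-site TGACGT was found in 7.51% of them, and among the 7 members in Fos, 66 bases before the start, and in Atf3, 8 bases before the start on the opposite strand. The TATA box TATAAA, in 13.6% of promoters, lay 33 bases before the start of Fos and at the start of Junb. The Jun-type variant TGACATCA, in 3.62%, was present in Jun alone among the 7, at 45 bases before the start. The classical AP-1 site TGANTCA (7.81% of promoters), the full CREB-type site TGACGTCA (1.79%, which contains TGACGT) and the CArG box of the serum response factor (1.63%) had 0 matches in the 7. The EGR site GCGNGGGCG (5.55%) was found in Fosb and Fosl2. GGGCGG, a GC box that can overlap the EGR site, was found in 5 of the 7 and in 35.7% of all promoters, and was left in lower case. These matches describe letters in the window. Bases further upstream were not searched, and Fosl1, Egr1 and Ier2 had no entry. The 0 matches therefore do not show that a member lacks a site.

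The data comprised 1 expression and 1 accessibility library for each genotype, 4 in all. With no replicates, no test between genotypes was possible, and every interval is a 95% interval for counting error alone. The intervals take counts as independent, so they are too narrow where UMIs gather in few nuclei. The expression libraries held 3455 and 2404 nuclei with medians of 13789 and 11548.5 UMIs (counted RNA molecules), and 12 barcodes occurred in both. Nuclei were gated on marker genes as tumour (2408 Sun1_WT and 1304 Sun1_KO), myeloid (324 and 287), NK (97 and 94) and T (58 and 102). Median depths were 17059 and 16868.5 UMIs in tumour and 4911 and 4899 in myeloid nuclei. Levels are CPM, the UMIs of a gene scaled to the summed UMIs of its gate without mitochondrial genes. In tumour nuclei Sun1 itself had 104.7 CPM with Sun1_WT and 64.4 CPM with Sun1_KO, a log2 ratio of -0.70 (-0.79 to -0.62), and RNA from outside the deleted part would not check the label. Mitochondrial RNA made up 6.93% of UMIs in Sun1_WT and 11.3% in Sun1_KO tumour nuclei, and 5.83% and 9.33% in myeloid nuclei. The gates were judged on markers: the 10 myeloid markers summed to 15362 and 11435 CPM in the myeloid gate and to 63.0 and 96.9 CPM in the tumour gate, where all 10 were detected. The 6 tumour markers summed to 3902 and 5550 CPM in the tumour gate, 115 and 120 CPM in the myeloid gate. Hmga2 alone gave 2851 and 4491 CPM of the tumour sums, so this gate leaned on a gene that itself differed between the libraries. Igf2bp2, Cald1 and Tead1 were also higher in tumour than in myeloid nuclei. Igf2bp3 was not (11.8 and 5.93 against 12.2 and 13.0 CPM), and Prl2c3 had only 2 and 4 tumour UMIs. NK and T markers in the tumour gate summed to between 4.20 and 7.91 CPM, with Klra8 at 0. Fibroblast markers summed to 1085 and 929 CPM there, all 6 detected, and their part in the results was not tested.

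The make-up of members differed between tumour, myeloid and lymphocyte nuclei and was similar for NK and T nuclei. Fosl1 and Egr1 were highest in tumour nuclei, Fos and Atf3 in myeloid nuclei, and Junb and Jund carried most Jun-family counts in lymphocytes. Within the Fos family, Fosl1 held 61.6% (60.5 to 62.7) of UMIs in Sun1_WT and 54.0% (52.6 to 55.4) in Sun1_KO tumour nuclei. Fos held 75.6% (72.8 to 78.3) and 71.8% (68.3 to 75.2) of them in myeloid nuclei. In NK nuclei Fosl2 held 72.5% of 40 and 69.7% of 33 Fos-family UMIs. Jun held 49.7% and 44.1% of Jun-family UMIs in tumour nuclei, and Junb 61.4% and 61.8% in myeloid nuclei. In T nuclei Jun held only 4.26% of 94 and 10.6% of 189. These shares are of UMIs and are not corrected for transcript length.

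Fos, the prototype of the family, stood at 7.86 CPM (7.05 to 8.74) in Sun1_WT and 17.7 CPM (16.03 to 19.5) in Sun1_KO tumour nuclei. Its myeloid level was 429.8 CPM (399 to 462) and 329 CPM (300.4 to 360), far above both tumour values. NK nuclei had 4 and 6 Fos UMIs, or 11.8 CPM (3.20 to 30.1) and 24.9 CPM (9.15 to 54.2), intervals that overlap those of tumour nuclei, and T nuclei had 2 and 2. Fosb, whose protein resembles Fos, was at 16.1 CPM (14.9 to 17.3) and 31.3 CPM (29.1 to 33.6) in tumour nuclei, against 62.2 and 49.9 CPM in myeloid nuclei. Both genes were thus lower in tumour than in myeloid nuclei in each library, and the gap was narrower in the knockout. As a share of the myeloid level, tumour Fosb was 25.9% in Sun1_WT and 62.7% in Sun1_KO.

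Fosl1, which encodes Fra-1, showed the reverse order, with 105 CPM (102 to 108) and 109.8 CPM (106 to 114) in tumour nuclei. In myeloid nuclei it had 16 and 8 UMIs, or 9.31 and 5.46 CPM. Fosl2, which encodes Fra-2, was spread across the classes. It stood at 41.5 and 44.5 CPM in tumour, 66.9 and 73.8 in myeloid, 85.2 and 95.5 in NK and 85.8 and 59.8 CPM in T nuclei. The order of myeloid, NK and T nuclei for Fosl2 did not hold beyond their counting intervals, while the tumour level lay below the myeloid interval in both libraries.

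**Figure D1:**
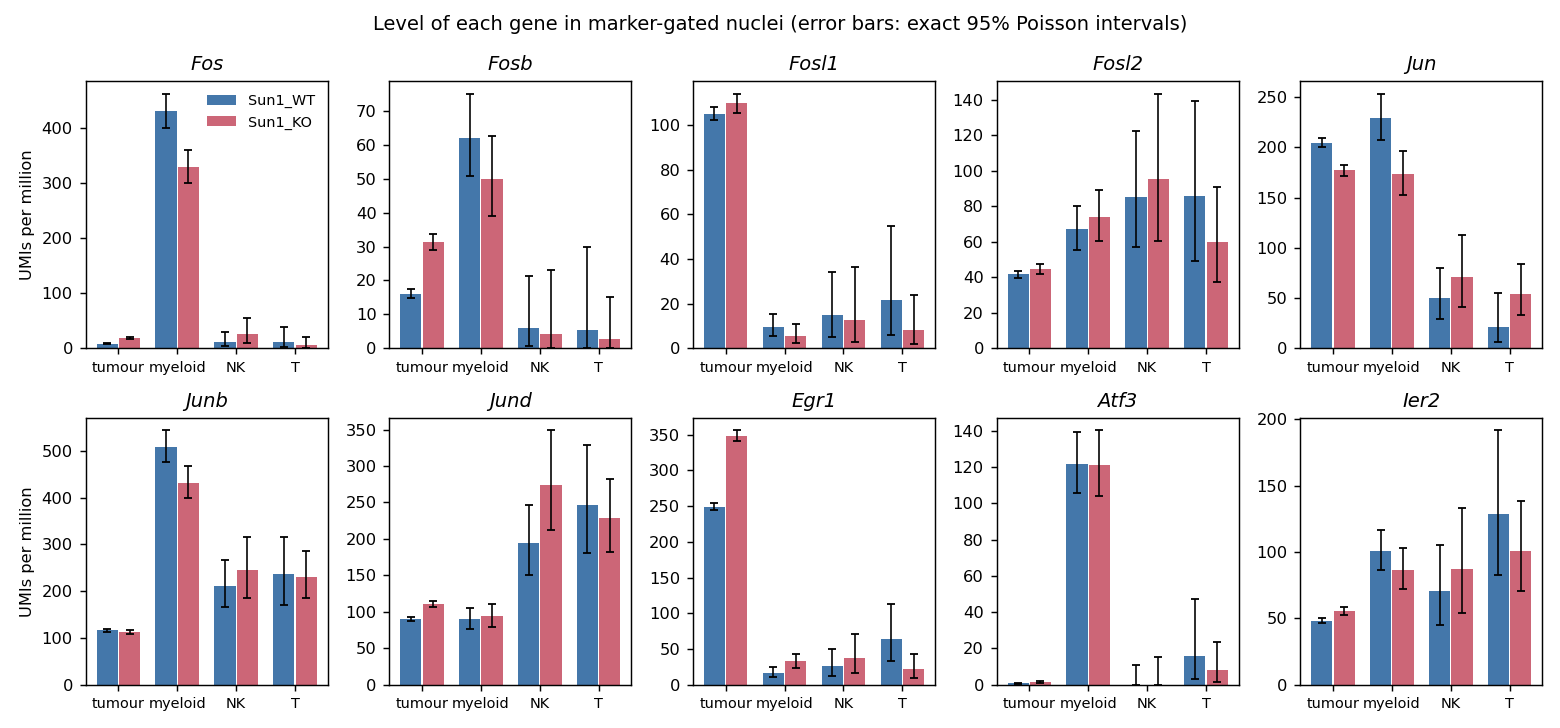
Level of each of the 10 genes (CPM without mitochondrial genes, linear axis from 0, a scale of its own for each gene) in tumour-, myeloid-, NK- and T-gated nuclei of the Sun1_WT (blue) and Sun1_KO (red) libraries; error bars are exact 95% Poisson intervals, with 1 library per genotype. Fosl1 and Egr1 peak in tumour nuclei, Fos and Atf3 in myeloid nuclei, and Atf3 had 0 UMIs in NK nuclei.

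Jun, the partner that gives AP-1 its strongest activating form, was at 205 CPM (201 to 209) and 177 CPM (172 to 183) in tumour nuclei and at 229.7 CPM (208 to 254) and 173 CPM (153 to 196) in myeloid nuclei. It was the member closest to equal between these classes, together with Jund. NK nuclei had 17 and 17 Jun UMIs, and T nuclei 4 and 20. Junb, a weaker activator that can restrain Jun, was at 117 and 113 CPM in tumour and at 509 and 432 CPM in myeloid nuclei. It lay at 212 and 245 CPM in NK and at 236 and 231 CPM in T nuclei, between the other classes. Jund, the most constant Jun protein in resting cells, was at 89.96 and 111 CPM in tumour and 90.1 and 94.2 CPM in myeloid nuclei. Its NK levels were 194 and 274 CPM and its T levels 247 and 228 CPM, with every lymphocyte interval above both tumour intervals.

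Egr1, a zinc-finger factor and not part of AP-1, was at 249 CPM (244 to 254) and 348 CPM (341 to 356) in tumour nuclei. The other gates had at most 48 Egr1 UMIs, and the myeloid levels were 16.9 and 32.8 CPM. Atf3, a stress-induced repressor of the ATF family, was at 122 and 121 CPM in myeloid nuclei. In tumour nuclei it had 39 and 38 UMIs, or 0.899 and 1.6 CPM. NK nuclei had 0 Atf3 UMIs in both libraries. In these gates 3 UMIs would be 8.82 and 12.5 CPM, and the intervals reach 10.8 and 15.3 CPM. Ier2, an immediate early gene whose product acts in the nucleus, stood at 48.2 and 55.5 CPM in tumour, 101 and 86.7 in myeloid, 70.5 and 87.2 in NK and 129 and 101 CPM in T nuclei.

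RNA released from other cells can enter any droplet, so myeloid-rich members in tumour nuclei were set beside myeloid genes. Of 10 myeloid genes outside the gate markers, tumour nuclei showed 0.583% of the summed myeloid level in Sun1_WT and 1.15% in Sun1_KO. At that share Fos would read 2.51 and 3.80 CPM, and at the highest share of any of the 10 genes 5.87 and 6.76 CPM. The measured 7.86 and 17.7 CPM were above these levels. For Fosb the highest share would give 0.850 and 1.02 CPM against 16.1 and 31.3 measured. For Atf3 it would give 1.66 and 2.48 CPM, more than was measured, so as a mean over the gate the tumour level of Atf3 is not told apart from background. Its UMIs were uneven, with 13 of the 39 in cluster 4 of Sun1_WT (3.72 CPM, 1.98 to 6.36) and up to 10 in a single Sun1_KO nucleus.

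Between genotypes, Fos and Fosb were about 2-fold higher in the Sun1_KO tumour nuclei, Egr1 and Jund were higher by less, and Jun was lower, in these directions under each scaling tried. The log2 ratio of Sun1_KO over Sun1_WT was 1.17 (0.96 to 1.38) for Fos, from 341 and 420 UMIs, and 0.96 (0.81 to 1.11) for Fosb, from 698 and 743 UMIs. Egr1 had a ratio of 0.48 (0.44 to 0.52), Jund 0.30 (0.23 to 0.37) and Ier2 0.20 (0.10 to 0.30). Fosl2 was at 0.10 (-0.01 to 0.21), Fosl1 at 0.06 (-0.01 to 0.13) and Junb at -0.05 (-0.12 to 0.02), 3 values whose intervals include equality. Jun was at -0.21 (-0.26 to -0.16). The Fosb value was 0.20 (-0.18 to 0.57) under a stricter gate described after the counts by nucleus. In nuclei with 10 to 20% mitochondrial RNA the ratios were smaller, at 0.57 for Fos and 0.33 for Fosb. Atf3 had fewer than the 100 UMIs set as the least for a ratio to be counted.

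Among the 9 members measured in tumour nuclei, 2 were higher by at least 1.5-fold and 0 lower by that much. The same held for 12.2% (higher) and 9.35% (lower) of all 13042 genes measured there. The median of the 9 was 0.20 and that of all genes 0.15, so as a list the members lay close to the other genes. Fos was at percentile 97.6 of all measured genes, Fosb at 96.2, Egr1 at 82.0 and Jun at 24.0. With TMM scaling the median of all genes moved to -0.06 and that of the members to -0.01. Fos (0.96), Fosb (0.75), Egr1 (0.27) and Jund (0.09) stayed above 0 under it, while Ier2 (-0.01), Fosl2 (-0.11) and Fosl1 (-0.15) turned below 0.

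**Figure D2:**
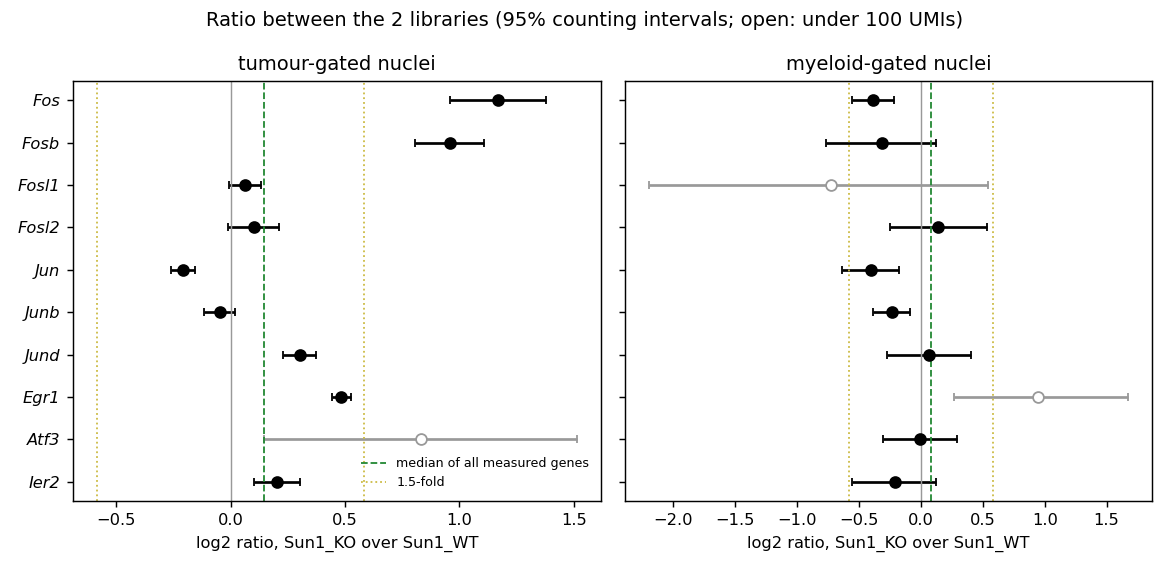
Log2 ratio of Sun1_KO over Sun1_WT for each gene in tumour-gated (left) and myeloid-gated (right) nuclei, with 95% counting intervals; open grey points have under 100 UMIs, the dashed line is the median of all measured genes and dotted lines mark 1.5-fold. Fos (1.17) and Fosb (0.96) stand past 1.5-fold in tumour nuclei, whereas the 8 genes measured in myeloid nuclei lie within it.

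Fos and Fosb RNA sat in few tumour nuclei. At least 1 Fos UMI was found in 7.89% and 12.9% of tumour nuclei, and in 4.12% and 4.26% of the shallower NK nuclei (median depths 3061 and 2485 UMIs). After thinning every nucleus to 1000 UMIs the tumour shares were 1.12% (0.740 to 1.63) and 1.61% (1.00 to 2.45), and the NK shares 1.06% and 2.22%. At that depth the tumour shares lay within the NK intervals (0.0269 to 5.79 and 0.270 to 7.80), so the share of nuclei with a Fos UMI is not read as expression. NK nuclei are not known to lack Fos. Nuclei with 3 or more Fos UMIs numbered 37 of 2408 (1.54%, 1.08 to 2.11) in Sun1_WT and 46 of 1304 (3.53%, 2.59 to 4.68) in Sun1_KO. They held 45.2% and 65.0% of all Fos UMIs of the gate. For Fosb such nuclei were 2.74% (2.13 to 3.47) and 5.21% (4.07 to 6.56). Egr1 was broader, with at least 1 UMI in 58.1% and 61.2% of tumour nuclei, and Jun broader still at 80.2% and 77.8%.

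The nuclei with 3 or more Fos UMIs were also high in several other members. In Sun1_KO they carried Fosb at 193 CPM against 19.0 in nuclei with no Fos UMI, Egr1 at 761 against 288, Junb at 265 against 99.9 and Ier2 at 115 against 49.6. The same contrast in Sun1_WT was 225 against 10.0 for Fosb, 649 against 228 for Egr1, 332 against 108 for Junb and 155 against 44.1 for Ier2. Fosl1 was not higher in them, at 96.8 against 106 CPM in Sun1_WT and 104 against 109 in Sun1_KO. Fosl2 was at 71.5 against 40.8 CPM in Sun1_WT but at 43.7 against 43.9 in Sun1_KO. Myeloid markers moved with this contrast, at 96.8 against 61.7 CPM in Sun1_WT and 175 against 92.5 CPM in Sun1_KO, and their part in it was not tested.

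A stricter gate was also applied, which changed the tumour and the other markers together. With at least double the tumour marker minimum and no UMI of any myeloid, NK or T marker, 634 Sun1_WT and 274 Sun1_KO nuclei remained. Fos there was 6.44 CPM (70 UMIs) and 13.6 CPM (61 UMIs), a ratio of 1.08 (0.56 to 1.59). Fosb was 17.3 CPM (188 UMIs) and 19.8 CPM (89 UMIs), a ratio of 0.20 (-0.18 to 0.57), so its difference past 1.5-fold was lost. Egr1 was at 0.19 (0.10 to 0.29), Jund at 0.31 (0.16 to 0.46) and Jun at -0.35 (-0.47 to -0.24).

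Across all members, a tumour nucleus seldom showed many at once. Thinned to 3000 UMIs, 2.92% (2.28 to 3.67) of Sun1_WT and 3.08% (2.21 to 4.17) of Sun1_KO tumour nuclei had 5 or more of the 10 members, and 24.9% and 25.4% had 3 or more. Unthinned, the shares with 5 or more were 52.1% and 54.2%. The thinning left out 7 and 5 shallower nuclei. The number of members detected was therefore alike in both libraries, while the summed member UMIs were more uneven in the knockout, with a variance over mean of 4.26 against 3.11. Without thinning, so that depth also enters, the 1% of nuclei with most member UMIs held 8.59% of them in Sun1_KO and 6.12% in Sun1_WT.

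Pairs of members correlated weakly over tumour nuclei thinned to 3000 UMIs (2401 and 1299 nuclei, log2 of UMIs plus 1), within each library and as a description, since sparse counts hold such values down. The pair Fos and Fosb had r of 0.28 in Sun1_WT and 0.30 in Sun1_KO. Junb and Egr1 had 0.26 and 0.26, Egr1 and Ier2 0.28 and 0.23, and Fosb and Egr1 0.16 and 0.26. Fosl1 stood apart from Fos (-0.01 and 0.00) and Jund from Ier2 (0.02 and 0.00). A set of 7356 genes was found in at least 5% of these nuclei in each library, before members and mitochondrial genes were left out. Of the rest, those most like the summed members included Errfi1 (mean r 0.24), Ifrd1, Dnajb1, Hsp90aa1, Ccn1, Hsph1, Esm1, Phlda1 and Lmna (0.17). Dnajb1, Hsp90aa1 and Hsph1 encode heat shock chaperones, and Lmna encodes lamin A and C. The median gene had r of -0.00, and the lowest, Trps1, had -0.21.

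The higher Fos of the knockout was looked at within subsets of tumour nuclei chosen after the data were seen. By mitochondrial share, the Fos ratio was 2.08 (1.49 to 2.65) below 5%, where Sun1_KO had only 56 nuclei, 1.28 (0.96 to 1.59) from 5 to 10% and 0.57 (0.04 to 1.17) from 10 to 20%. Fosb went from 1.47 through 0.73 to 0.33 (-0.01 to 0.71) in the same strata, and Egr1 was at 0.73, 0.36 and 0.38. All 3 genes were above 0 in each stratum, and the ratios of Fos and Fosb were smallest where mitochondrial RNA was most abundant. That stratum held 859 of the 1304 Sun1_KO but 183 of the 2408 Sun1_WT nuclei (247 and 31 Fos UMIs), and its Fosb interval included equality. The difference in mitochondrial share between the libraries thus moved with the tumour Fos and Fosb results, and its part was not tested. By depth, Fos was at 0.91 under 10000 UMIs (40 and 34 UMIs of Fos), 0.97 from 10000 to 20000 and 1.49 at 20000 or more. Without the 1% of nuclei with most UMIs of the 10 members together it was 1.19 (0.97 to 1.41). That ranking left 308 of 341 and 381 of 420 Fos UMIs in place. It therefore could not show whether the ratio rests on a few nuclei rich in Fos. The 1% with most Fos UMIs held 34.6% and 34.0% of them, and a ratio without those nuclei was not computed.

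A further subset came from chromatin. Between 5 and 45 Mb of chromosome X, the median accessibility share of a tumour nucleus was 4238 CPM in Sun1_WT and 2167 CPM in Sun1_KO, with 534 Sun1_WT nuclei (22.2%) below 3000 CPM against 96.4% of Sun1_KO nuclei. Set against those 534 nuclei alone, the Sun1_KO ratio was 1.80 (1.38 to 2.28) for Fos, 1.37 (1.09 to 1.67) for Fosb and 0.43 (0.37 to 0.50) for Egr1. Within Sun1_WT, the 534 nuclei had lower Fos than the other 1874, at 5.03 against 8.67 CPM.

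**Figure D3:**
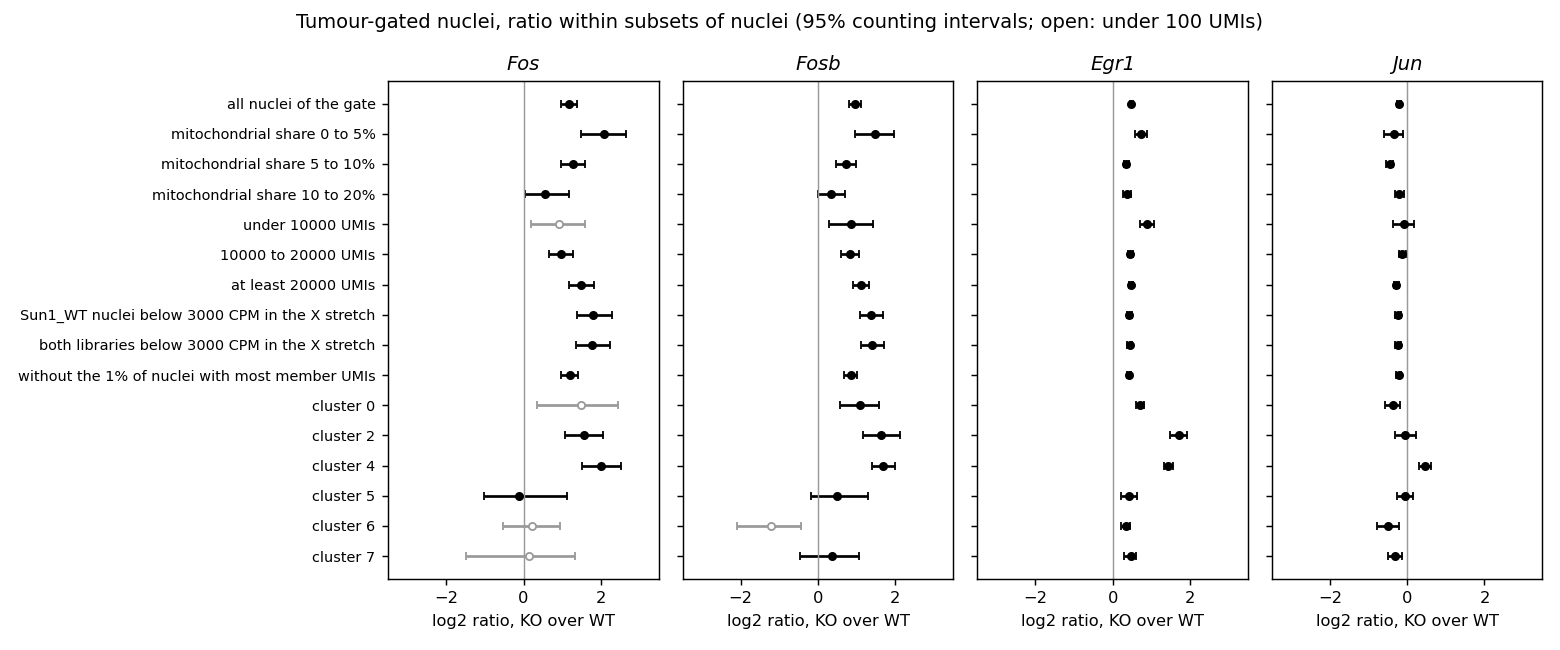
Log2 ratio of Sun1_KO over Sun1_WT for Fos, Fosb, Egr1 and Jun in all tumour-gated nuclei (top) and in subsets by mitochondrial share, depth, chromosome X accessibility and cluster, with 95% counting intervals; open grey points have under 100 UMIs. Egr1 is above 0 in every subset drawn, Fos is below 0 in cluster 5 (-0.11), Fosb is below 0 in cluster 6 (-1.21) and Jun is above 0 in cluster 4 (0.47).

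Clusters made without the members showed in which groups of tumour nuclei the differences lay, and carry no location in the tumour. The libraries filled the clusters unequally, and the part of this in the ratios of the whole gate was not tested. Cluster 4 was led by Car9, Ankrd37, Ndrg1 and Bnip3, genes known to be induced by low oxygen, and also by the chaperone gene Dnajb1. In it Fos was 15.7 CPM (11.9 to 20.5) in Sun1_WT and 63.4 CPM (51.4 to 77.2) in Sun1_KO, a ratio of 2.0 (1.52 to 2.51). Fosb was 44.6 and 144 CPM there, Egr1 308 and 834 CPM, and Jun 253 and 349.7 CPM. This was the only cluster of the 6 compared in which Jun was higher in the knockout, at 0.47 (0.31 to 0.62).

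Cluster 2, led by the matrix genes Col10a1, Aspn, Mmp3 and Ogn, had Fos at 20.6 and 60.6 CPM, Fosb at 20.8 and 64.6 CPM and Egr1 at 86.3 and 281 CPM. Its Hmga2 was at 1267 and 2526 CPM, against 2851 and 4491 CPM in the whole gate. Its Fosl1 was at 21.9 and 14.9 CPM, against 105 and 109.8 CPM. Whether the nuclei of cluster 2 were carcinoma cells like the rest was not tested. Cluster 0, led by Sh2d6, Car6 and the EGF-receptor ligand genes Areg and Btc, had low Fos (2.46 and 6.69 CPM, 30 and 12 UMIs) and Egr1 at 315 and 518 CPM. In cluster 6, led by the mitotic genes Cdc20, Ccnb2 and Plk1, Egr1 reached its highest levels of 1038 and 1312 CPM. Fos there was 26.4 and 30.5 CPM, and Fosb was lower in the knockout, at 42.2 against 17.9 CPM (64 and 17 UMIs, too few to count a ratio). Cluster 5, led by Gpc5 and Ift81, held 624 of the Sun1_KO but 71 of the Sun1_WT tumour nuclei. Fos was 7.56 and 7.33 CPM in it, a ratio of -0.11 (-1.03 to 1.13), and Egr1 187 and 250.4 CPM. Cluster 7, led by the interferon-induced genes Cxcl10 and Ifit1, had Fos at 4.52 and 4.69 CPM. Clusters 1 and 12 had enough tumour nuclei in Sun1_WT alone, with Fos at 5.22 and 4.69 CPM. Cluster 16 had enough in Sun1_KO alone, with Fos at 17.1 CPM. Of the 420 Fos UMIs of Sun1_KO tumour nuclei, 98 came from the 97 nuclei of cluster 4 and 61 from the 96 of cluster 2. Another 91 came from the 624 nuclei of cluster 5 and 43 from the 177 of cluster 16.

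**Figure D4:**
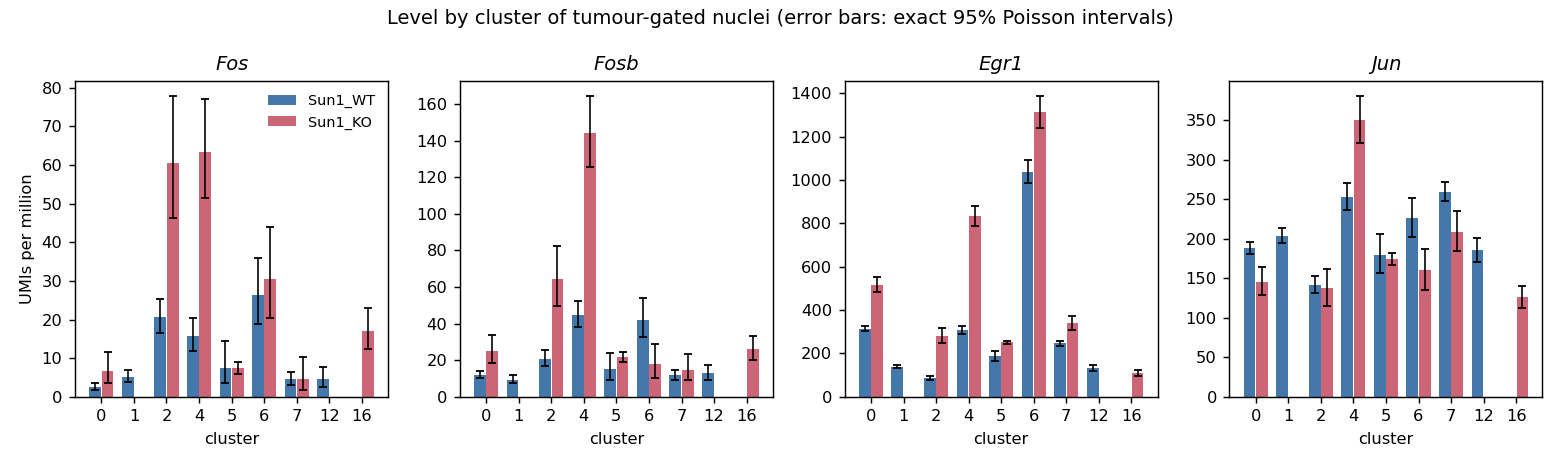
Level of Fos, Fosb, Egr1 and Jun (CPM, linear axis from 0) in clusters of tumour-gated nuclei of Sun1_WT (blue) and Sun1_KO (red), with exact 95% Poisson intervals; a bar is drawn where a library had at least 50 such nuclei. In Sun1_KO, Fos is highest in clusters 2 and 4 (60.6 and 63.4 CPM), and Egr1 is highest in cluster 6 in both libraries (1038 and 1312 CPM).

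In myeloid nuclei Fos went the opposite way to tumour nuclei, and Jun was lower in both classes. The library names stand here for the injected cells, and myeloid Sun1 was at 37.2 and 34.8 CPM (-0.09, -0.66 to 0.46). Fos had a ratio of -0.38 (-0.55 to -0.22), from 739 and 482 UMIs, Jun of -0.40 (-0.64 to -0.17) and Junb of -0.24 (-0.39 to -0.09). Under the stricter gate (106 and 69 nuclei) Jun was at -0.05 (-0.59 to 0.47) and Junb at -0.18 (-0.48 to 0.12), while Fos stayed at -0.38 (-0.73 to -0.04). Fosb (-0.32), Ier2 (-0.21), Fosl2 (0.14), Jund (0.06) and Atf3 (-0.01) had intervals that include equality. Of the 8 measured members, 0 were past 1.5-fold in either direction, against 5.62% of 5765 genes higher and 4.8% lower. The median of the 8 was -0.22 and that of all genes 0.08, and 1 of the 8 was above the latter. Egr1, with 29 and 48 UMIs, was not counted.

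The lower myeloid Fos did not hold in every stratum of mitochondrial RNA. Its ratio was -0.48 (-0.80 to -0.18) below 5% (188 and 71 nuclei), 0.26 (-0.02 to 0.54) from 5 to 10% (118 and 112) and 0.06 (-0.43 to 0.61) from 10 to 20% (18 and 104). In Sun1_WT, Fos was at 618, 278 and 266 CPM in the 3 strata, highest where mitochondrial RNA was least. Jun was at -0.20, -0.42 and -0.20 in these strata, and Junb at -0.22 (-0.51 to 0.05), -0.00 (-0.24 to 0.23) and 0.89 (0.37 to 1.501), so the lower Junb did not hold in every stratum either. The difference in mitochondrial share between the libraries thus moved with the myeloid Fos and Junb results, and its part was not tested. Fos was lower both in nuclei with a C1q UMI (-0.34, -0.53 to -0.16) and in those without (-0.44, -0.86 to -0.04).

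In NK and T nuclei only Junb and Jund had 100 UMIs. In NK nuclei their ratios were 0.21 (-0.31 to 0.73) and 0.50 (-0.02 to 1.01), and in T nuclei -0.04 (-0.57 to 0.53) and -0.12 (-0.65 to 0.44). With 0 of 2 past 1.5-fold, the background was 11.6% higher and 13.3% lower of 1275 genes in NK, and 8.11% and 7.7% of 1246 genes in T nuclei. Each of the Junb and Jund intervals included equality, and differences within their reach were not resolved at this depth. The ratio of Jun in T nuclei, from 4 and 20 UMIs, had an interval of -0.24 to 3.35.

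The other genes of the pathway were set against all measured genes in tumour nuclei, where 12.2% of genes were past 1.5-fold higher and 9.35% lower. All 27 listed kinases and factors upstream were measured. Past 1.5-fold, 2 were higher and 1 lower, and the median was 0.26 against 0.15 for all genes. The highest were Rps6ka1, a kinase downstream of ERK (0.83), Srf, the serum response factor gene (0.71) and Braf (0.56). Among the lowest were Hras (-0.61) and Elk1 (-0.41). Srf stood at 10.1 and 16.4 CPM and Braf at 117 and 172 CPM. Of the 13 measured among 14 feedback inhibitors of MAP kinase signalling, 2 were higher and 1 lower (median 0.37). Among them Dusp2 (0.78), Spred3 (0.65) and Dusp16 (0.57) were highest and Dusp4 (-0.76), Dusp10 (-0.37) and Dusp8 (-0.03) lowest, so the phosphatase genes of this family went both ways.

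Other immediate early genes were split as well, with 3 of the 39 measured (43 listed) higher past 1.5-fold, 5 lower and a median of 0.07. These counts are near the shares over all genes in tumour nuclei, 12.2% and 9.35%. Ccn1 and Ccn2, which encode matricellular proteins also controlled by YAP, had ratios of 1.48 (1.40 to 1.55) and 1.30 (1.08 to 1.53). Ccn1 stood at 57.8 and 161 CPM. Zfp36, whose product degrades short-lived RNAs, was at 0.90 (0.74 to 1.06). The 5 lower were Klf4 (-0.94), Gadd45g (-0.90), Ier3 (-0.76), Cited2 (-0.71) and Gadd45b (-0.61), of which the last 2 are named for completeness after their values were seen. In myeloid nuclei 4 of 27 measured were higher and 1 lower, against 5.62% and 4.8% of all genes. Named after their values were seen, these were Ptgs2 (1.16), Nr4a1 (0.91), Nr4a2 (0.87) and Gadd45b (0.62), and Ier3 (-0.63).

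Of the 24 measured among 26 bZIP factors that pair or compete with AP-1, 2 were higher past 1.5-fold and 2 lower (median 0.04). These counts are near the shares over all genes, 12.2% and 9.35%. Bach2, a repressor best known from lymphocytes, was at 21.4 and 48.3 CPM in tumour nuclei, a ratio of 1.17 (1.05 to 1.30). Mafk was at 0.48, while Cebpd (-1.22), Maff (19.5 and 9.76 CPM) and Nfe2l2 (-0.48) were lowest.

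Genes known as AP-1 targets were lower more often than higher in tumour nuclei. Past 1.5-fold, 2 of the 25 measured (28 listed) were higher and 8 lower, against 12.2% and 9.35% of all genes, and the median stood at -0.17. Ccl2, a chemokine for monocytes, was at 94.0 and 20.3 CPM (-2.21, -2.35 to -2.08). Timp1, a metalloprotease inhibitor, was at 464 and 168 CPM (-1.46), and Il11 was at -1.14. Highest were Lif (0.98, 0.73 to 1.22), Itga5 (0.59) and Mmp9 (0.55). In myeloid nuclei 0 of 17 targets were higher and 5 lower, against 5.62% and 4.8% of all genes.

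Heat shock genes, which enzymatic tissue digestion can induce, were measured as a reference for handling. Past 1.5-fold in tumour nuclei, 5 of the 14 measured (15 listed) were higher and 1 was lower (median -0.35). The shares over all genes were 12.2% and 9.35%. The inducible genes Hspa1a (1.20), Hspa1b (0.89) and Hsph1 (0.64) were highest, followed among the 5 by Dnajb1 (0.63) and Bag3 (0.62), these 2 named after their values were seen. Dnaja1 (-0.65), Hspe1 (-0.54) and Hspa8 (-0.54) were lowest. In myeloid nuclei Hspa1b was also higher, at 231 and 484 CPM (1.06, 0.88 to 1.24), where Fos was lower. Their part in the Fos, Fosb and Egr1 values was not tested.

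Chromatin over the members, Atf3 apart, was about equally open in the tumour nuclei of both libraries, including at genes whose RNA differed. Regions within 1 kb of each gene were summed as CPM over all accessibility counts of a gate. Fos, with 1 region at chr12:85473339-85474225 (mm10) that covers the sequence printed above, had 43.7 CPM in Sun1_WT and 42.4 CPM in Sun1_KO, a log2 ratio of -0.04 (-0.09 to 0.01). Fosb, with 4 regions, had 145 and 138 CPM (-0.07). Egr1, with 3 regions on chromosome 18, had 231 and 202 CPM (-0.19, -0.21 to -0.17), less open where its RNA was higher. The region from 34860386 to 34861469, over the start of Egr1, was at -0.27.

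Summed over all their regions, the 10 members lay between -0.23 and 0.01, with a median of -0.08 against 0.01 for all genes. None was past 1.5-fold in these sums, against 9.12% of 27042 genes more open and 5% less open. Jun was at -0.09, Junb at -0.09, Jund at 0.01, Fosl1 at -0.15, Fosl2 at -0.04, Ier2 at 0.01 and Atf3 at -0.23. Over regions called in both libraries alone, Atf3 was at -0.70, past 1.5-fold, and the other 9 lay between -0.19 and 0.01. Even numbers made up 75.5% and 75.0% of accessibility values, so these counts were not independent single events and their intervals are too narrow.

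**Figure D5:**
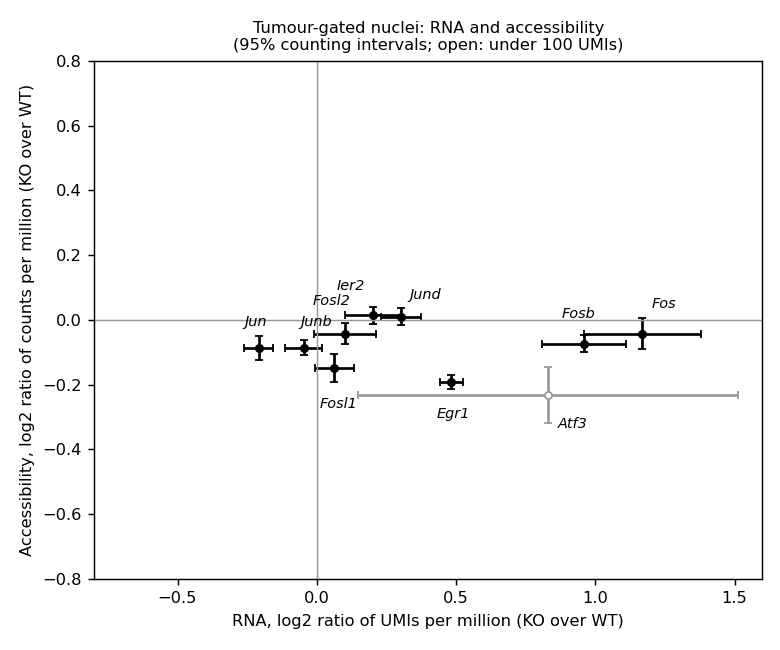
RNA ratio (x axis) against accessibility ratio (y axis) of Sun1_KO over Sun1_WT for the 10 genes in tumour-gated nuclei, both as log2, with 95% counting intervals; Atf3 is open because it had under 100 UMIs. RNA ratios run from -0.21 (Jun) to 1.17 (Fos), whereas accessibility ratios lie between -0.23 and 0.01, the lowest being Atf3, which is at -0.70 over regions called in both libraries.

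Single regions past 1.5-fold were few. Of 30 member regions called in both libraries, 2 were at least 1.5-fold less open and 0 more open in Sun1_KO tumour nuclei, against 4.95% and 7.87% of 110774 shared regions. So small a count does not set the members apart from other regions. Both of the less open regions were at the start of Atf3. The region chr1:191182037-191182858, just inside the gene, had 1126 counts (5.93 CPM) in Sun1_WT and 212 (1.61 CPM) in Sun1_KO, a ratio of -1.87. The region chr1:191182942-191183797, which holds the promoter printed above, had 617 and 249 counts (3.25 and 1.90 CPM; -0.77). In myeloid nuclei the promoter region was at 88.2 and 78.1 CPM and the inner region at 20.6 and 30.2 CPM. These myeloid levels were above the tumour levels, and the part of other cells in the tumour counts was not tested. Over the whole gene Atf3 had 15.7 and 13.3 CPM in tumour, 133 and 146 CPM in myeloid and 54.5 and 72.8 CPM in NK nuclei, so it was open in NK nuclei that had 0 of its UMIs. The 2 of its 6 regions called in Sun1_KO alone add to the Sun1_KO sums.

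Between classes, Fosl1 was more open in tumour (62.0 and 55.9 CPM) than in myeloid nuclei (30.3 and 21.8 CPM), as for its RNA. Fos was more open in myeloid nuclei, at 74.1 and 66.6 CPM. Egr1 was open in myeloid nuclei too, at 153 and 145 CPM against 231 and 202 CPM in tumour nuclei, although its myeloid RNA was sparse. In myeloid nuclei 0 of 10 members were past 1.5-fold (3.72% of 18001 genes more open, 2.43% less), and Fosl1 had the lowest ratio, -0.47 (-0.76 to -0.18). Of its regions, chr19:5447271-5448148 was the only one of the 30 shared member regions past 1.5-fold there, at -0.63, against 4.6% of 33750 regions less open and 2.58% more open.

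In NK nuclei 1 of 10 members was at least 1.5-fold more open and 0 less open, against 3.76% and 5.6% of 15168 genes. This was Fosl2, at 85.8 and 151 CPM (0.81, 0.59 to 1.04). Its region chr5:32148307-32149204 was called in the Sun1_KO library alone and held 107 of the 402 Sun1_KO counts, while the other 2 regions were at 0.42 and 0.08. Jund was at 0.54 (0.36 to 0.72) in NK nuclei. In T nuclei 0 of 10 were past 1.5-fold, against 4.79% of 13315 genes more open and 3.56% less open, and Jund was highest at 0.27.

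The authors' deposited table of differences between the libraries listed 9 of the 10 members, without Atf3. Its log2 fold changes, in the direction of Sun1_KO over Sun1_WT as read against the counts, had a median of 0.59 over 10156 genes, and 92.9% were positive in the authors' deposited table. Against that shift, the authors' deposited table placed Egr1 at 1.29, Fosb at 1.25 and Fos at 1.13, at ranks 60, 80 and 156 from the top. In the authors' deposited table Jund was at 0.74, Ier2 at 0.65, Fosl2 at 0.58, Fosl1 at 0.52, Junb at 0.41 and Jun at 0.14. Egr1, Fosb and Fos were also the 3 highest of the measured members in tumour nuclei, there in the reverse order, and Jun was the lowest in both. Both sets of values come from the same libraries.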

How the data were processed

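The authors deposited raw counts per nucleus, of UMIs over genes and of accessibility over peaks. The submitters' processing notes name Seurat, Signac, FastQC and 2 programs (Cell Ranger and Cell Ranger ARC), and mm10, without versions. Each library has its own peaks, per the file headers. In the authors' deposited table, baseMean is a signal (mean of counts divided by size factors), the fold changes are log2 ratios, stat is a Wald score, and p-values come from DESeq2, per the file headers. The nuclei behind it were not stated.

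Filters of 500 or more UMIs, 300 or more genes and no more than 20% mitochondrial UMIs left 3345 and 2172 nuclei. Gates were set on UMIs per 10000: tumour needed at least 10 marker UMIs and 8 per 10000 with few markers of the others, myeloid 5 and 16, NK and T 3 and 8. These thresholds were set after seeing the marker distributions. No doublet caller was run, and nuclei with markers of tumour and another class (74 and 85) were left out of the gates. Counts were summed by gate and library, and log2 ratios were taken for genes with 100 or more UMIs, with 0.5 added to each count. Intervals are exact Poisson (sums), Clopper-Pearson (shares) and conditional binomial (ratios). The interval method was tested on simulated pairs of independent Poisson counts, which cannot show its width for UMIs gathered in few nuclei. The 1% of tumour nuclei with most Fos UMIs held 34.6% of them in Sun1_WT and 34.0% in Sun1_KO. Both libraries were clustered together without the members (2000 variable genes, 30 components, 15 neighbours, Leiden resolution 1, seed 0), and clusters with at least 50 tumour-gated nuclei in each library were compared. Peaks overlapping by 1 bp were merged.

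The members and lists were chosen with earlier results of these data known. Named genes are the members, up to 3 highest and 3 lowest of each list in tumour nuclei and the 10 genes most correlated with the members, and a few genes under this rule are not reported here. The chromosome X stretch and the subsets were chosen after seeing the data. Python 3.11.15, scanpy 1.11.5, numpy 2.4.6, scipy 1.17.1 and pandas 2.3.3 were used, with edgeR 4.0.16 (R 4.3.3) for TMM.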

Additional observations from a re-analysis of the deposited data

How the results depend on the processing

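No paired analysis was possible because each genotype had 1 library and the labels carry no replicate numbers. Of 47 values of medians and shares under other settings, 37 stayed within a band around the main value and 10 did not. For a share the band was its counting interval. For a median it ran from the median of the members' lower limits to the median of their upper limits, which is not an interval of the median. The median of the members in tumour nuclei, 0.20, became -0.00985 with TMM and -0.0144 with median-ratio scaling, under which the median of all genes went from 0.15 to -0.06 and -0.07, and genes past 1.5-fold were higher in 26.8% and 26.3% of cases instead of 56.5%. The median in T nuclei, -0.08, became -0.76 with no UMI minimum. Shares of tumour nuclei with several members became 0.166% and 0.153% when thinned to 1000 UMIs, 4.76% in Sun1_KO under the stricter gate, and 24.9% and 25.4% for 3 or more members. Less depth or a lower count of members moves such a share by definition. The accessibility median, -0.08, became -0.12 with binarised counts and -0.0405 with 10 kb on either side. Of the values past 1.5-fold, those that changed sign did so in subsets added after seeing the data, Fos in cluster 5 (-0.11) and Fosb in cluster 6 (-1.21). Values within 1.5-fold also changed sign, such as Jun in cluster 4 (0.47), myeloid Junb at 10 to 20% mitochondrial share (0.89), and Ier2, Fosl1 and Fosl2 under TMM. Accessibility over Atf3 went from -0.23 to -0.70 with regions called in both libraries alone. Other settings of filter, gate and scaling kept tumour Fos between 0.90 and 1.17 and Egr1 between 0.19 and 0.53, and put Fosb between 0.20 (stricter gate) and 1.02. The cause was not tested. Thinning to 1000 UMIs and the stricter gate left no member with 100 UMIs in NK and T nuclei. Depth limits NK and T nuclei most, where 1 UMI was worth 2.72 to 5.37 CPM against 0.0231 and 0.0421 CPM in tumour nuclei.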
